A study of Rattus norvegicus with 12 samples.

Results

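Proliferation genes were followed in rat lumbar spinal cord after spinal cord injury (SCI) through 48 genes of DNA replication and mitosis, chosen by symbol. The gene table held 47 of the 48 among its 23526 genes, and E2f1 was not analysed here. All 47 passed the filter on low counts that left 18714 genes for testing. Bulk tissue RNA was sequenced from the lumbar segments L3-5 in 4 groups of 3 libraries: sham at day 0, and SCI at day 3, day 7 and day 14. No genotype, strain, sex, age, injury method, injury level or further agent is named in the labels. They do not state whether the 3 libraries of each group are separate animals, and p-values therefore measure the spread between libraries, which may be technical. Sham was sampled at day 0 alone, so injury and time after surgery cannot be told apart at any day.

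A cell that prepares to divide loads the helicase Mcm2 to Mcm7 onto DNA, copies the DNA with a machinery held by the sliding clamp Pcna, and then enters mitosis under cyclin B and Cdk1. E2F factors switch on many replication genes before S phase. Many genes of G2 and mitosis are instead controlled through a short promoter element called CHR, often together with CCAAT boxes, which NF-Y binds. In the injured cord, microglia, astrocytes, oligodendrocyte progenitors and vascular cells are known to divide, and immune cells enter from the blood. In bulk tissue, fewer cells of a type and less RNA per cell cannot be told apart, so the levels given here count neither cells nor divisions.

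Promoters of 37 of the 48 genes were found in RefSeq (build GRCr8), each read from 250 bases before to 50 bases after the gene start. A few of them are printed here because they carry the elements that separate the replication genes from the mitosis genes. Capitals mark E2F matches in the first 3 lines, the helicase genes that rose at day 3, and CHR matches in the last 3, a mitotic cyclin, its kinase and a chromosome protein. The windows are Mcm3 at chr9:30733697-30733996 on the minus strand, Mcm5 at chr19:13488563-13488862 on the plus strand, Mcm6 at chr13:42404303-42404602 on the minus strand, Ccnb1 at chr2:33655176-33655475 on the minus strand, Cdk1 at chr20:19265043-19265342 on the plus strand and Top2a at chr10:84473044-84473343 on the minus strand. Neighbouring E2F matches on opposite strands run into 1 block of capitals in Mcm5 and in Mcm6.
Mcm3: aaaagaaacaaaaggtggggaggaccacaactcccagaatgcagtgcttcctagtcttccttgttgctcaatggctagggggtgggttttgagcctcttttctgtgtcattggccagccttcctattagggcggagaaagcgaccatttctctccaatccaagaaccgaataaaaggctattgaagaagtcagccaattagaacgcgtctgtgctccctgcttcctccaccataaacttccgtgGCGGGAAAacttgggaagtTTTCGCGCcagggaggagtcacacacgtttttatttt
Mcm5: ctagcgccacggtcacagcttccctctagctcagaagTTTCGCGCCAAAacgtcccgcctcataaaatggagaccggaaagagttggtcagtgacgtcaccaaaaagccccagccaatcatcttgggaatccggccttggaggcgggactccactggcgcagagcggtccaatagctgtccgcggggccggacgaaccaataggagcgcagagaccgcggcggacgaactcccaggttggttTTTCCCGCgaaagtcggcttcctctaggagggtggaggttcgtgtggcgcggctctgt
Mcm6: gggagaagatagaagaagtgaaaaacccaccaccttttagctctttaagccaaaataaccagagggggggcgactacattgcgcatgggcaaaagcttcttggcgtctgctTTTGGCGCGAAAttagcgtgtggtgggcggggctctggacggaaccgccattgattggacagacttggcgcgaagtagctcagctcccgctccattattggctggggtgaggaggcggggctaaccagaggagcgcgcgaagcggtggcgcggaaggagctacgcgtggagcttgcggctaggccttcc
Ccnb1: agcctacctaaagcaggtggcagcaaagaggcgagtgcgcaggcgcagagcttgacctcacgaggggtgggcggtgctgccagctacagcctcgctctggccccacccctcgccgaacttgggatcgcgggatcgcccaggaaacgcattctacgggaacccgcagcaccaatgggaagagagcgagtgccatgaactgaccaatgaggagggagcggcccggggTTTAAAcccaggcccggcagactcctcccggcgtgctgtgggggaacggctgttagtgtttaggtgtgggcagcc
Cdk1: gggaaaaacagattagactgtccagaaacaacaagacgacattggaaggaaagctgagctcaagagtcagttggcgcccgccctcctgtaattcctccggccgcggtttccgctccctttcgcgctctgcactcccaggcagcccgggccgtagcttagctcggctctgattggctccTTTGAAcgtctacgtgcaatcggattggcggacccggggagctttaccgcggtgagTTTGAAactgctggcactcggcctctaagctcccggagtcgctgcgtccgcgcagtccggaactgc
Top2a: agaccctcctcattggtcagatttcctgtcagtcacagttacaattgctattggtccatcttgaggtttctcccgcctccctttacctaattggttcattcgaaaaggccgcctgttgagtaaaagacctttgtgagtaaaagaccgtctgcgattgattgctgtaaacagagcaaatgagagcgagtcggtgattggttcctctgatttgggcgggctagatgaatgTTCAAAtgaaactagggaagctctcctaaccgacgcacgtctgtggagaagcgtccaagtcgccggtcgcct

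Both strands were searched for the E2F letters TTTCGCGC, TTTGGCGC and TTTCCCGC, for the CHR letters TTTGAA and TTTAAA, and for CCAAT. The 3 E2F words can overlap one another, and overlaps between elements were not counted. An E2F match was present in 8 of 16 replication promoters, in 1 of 21 mitosis promoters (4.76%, Cdk1) and in 1.93% of the 27457 genes with a promoter. The 8 replication genes were Mcm2, Mcm3, Mcm5, Mcm6, Mcm7, Cdt1, Tyms and Uhrf1. A CHR match was present in 20 of 21 mitosis promoters (95.2%), in 2 of 16 replication promoters (12.5%) and in 29.6% of all genes. All 20 of these mitosis genes had a match starting within 100 bases before the gene start or after it, against 14.4% of all genes, a distance chosen after the matches were seen. CCAAT was found in 17 of 21 mitosis promoters (81.0%), in 9 of 16 replication promoters (56.2%) and in 39.6% of all genes. These matches describe letters, and no factor binding was measured.

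The 12 libraries held 63010295 to 79072710 counts, and levels are given as CPM (counts scaled to a common library size) after TMM scaling. Some libraries stood apart within their group. The summed level of 8 neuron markers was 374 CPM in the first and 323 CPM in the third library of SCI day 3, against 4494 to 8308 CPM in the other 10 libraries. Schwann cell markers summed to 46093 CPM in sham replicate 2 and reached 55216 CPM in the third SCI day 3 library, against 5959 and 7301 CPM in the other sham libraries. Erythroid markers reached 9874 CPM in SCI day 7 replicate 1, against 333 to 2209 CPM in the other 11 libraries.

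At day 3 the helicase genes Mcm3, Mcm5 and Mcm6 rose, and they were the members that passed edgeR's quasi-likelihood test with Benjamini-Hochberg adjustment in any comparison of 2 groups (5.5% of all genes tested were called higher at day 3). DESeq2 and limma called all 6 helicase genes and Pcna at day 3, where they called 12.6% and 17.7% of all genes higher, and in edgeR the calls were lost when most single libraries were left out, as given further on. All 6 helicase genes and Pcna lay above every sham library in all 3 day 3 libraries, whereas 20 of 26 mitosis genes overlapped the sham range there, and 19% of all genes lay above it in that way. At day 7 the levels of 39 of 47 genes were higher in all 3 libraries than in any sham library, mitosis genes included, against 12.8% of all genes, but no member passed the test. At day 14 that held for 8 of 47, against 9.37% of all genes, and the count was 33 without SCI day 14 replicate 1 and 24 without sham replicate 2. SCI day 3 replicate 1 had the highest level of 46 of 47 genes, and SCI day 7 replicate 2 came next for 41 of them, as the map of all members by library shows.

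**Figure D1:**
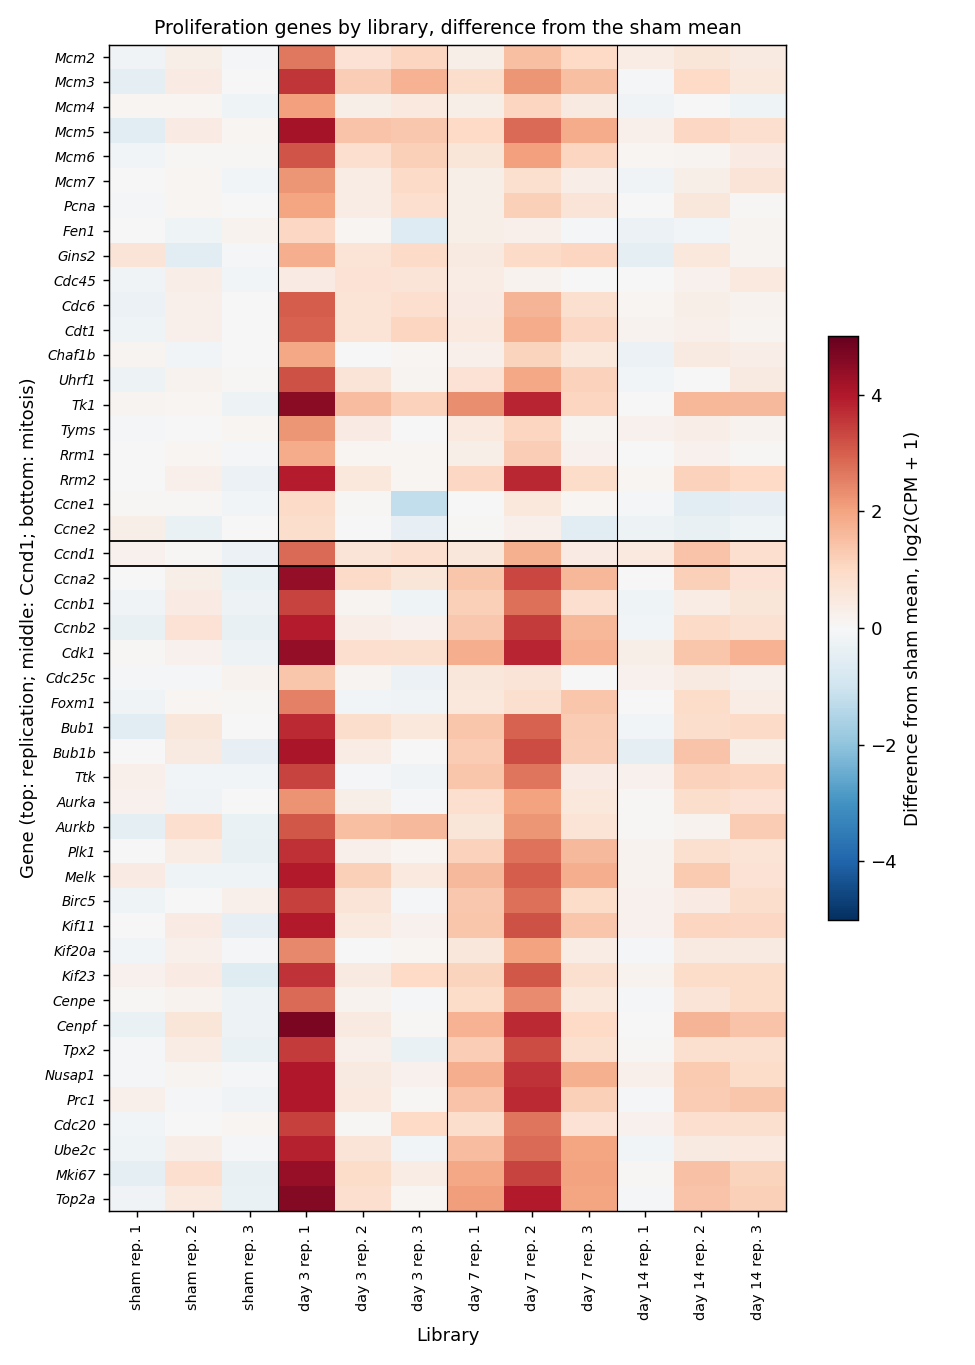
Each row is 1 of 47 genes and each column 1 of 12 libraries. Colour gives the difference of log2(CPM + 1) from the sham mean, with replication genes at the top, Ccnd1 in the middle and mitosis genes at the bottom. The columns of SCI day 3 replicate 1 and SCI day 7 replicate 2 are red in nearly every row. The other day 3 columns are paler, with every Mcm gene above the sham mean and, among mitosis genes, some above it (Aurkb at 1.52 and 1.61) and some near it or below.

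The helicase Mcm2 to Mcm7 unwinds DNA at the fork. Mcm3 was at 3.52, 7.22 and 5.25 CPM in the 3 sham libraries, at 72.6, 13.4 and 19.6 CPM at day 3, at 10.2, 27.5 and 16.2 CPM at day 7, and at 4.97, 11.3 and 7.88 CPM at day 14. Mcm5 was at 2.48, 5.67 and 4.39 CPM in sham, at 88.1, 12.3 and 11.8 CPM at day 3, at 8.94, 34.5 and 17.0 CPM at day 7, and at 4.91, 9.15 and 8.01 CPM at day 14. Mcm6 was at 6.82, 7.88 and 7.84 CPM in sham, at 73.2, 14.3 and 18.3 CPM at day 3, at 12, 33.9 and 16.7 CPM at day 7, and at 8.02, 8.28 and 10.2 CPM at day 14. In these 3 genes no library of day 3 or day 7 overlapped sham, and the first day 3 library was far above the other two. At day 3 the log2 fold change against sham was 2.72 ± 0.652 (SE) for Mcm3 (adjusted p = 0.0414), 3.16 ± 0.825 for Mcm5 (adjusted p = 0.0485) and 2.23 ± 0.588 for Mcm6 (adjusted p = 0.0493). Without SCI day 3 replicate 1 these log2 fold changes were 1.63, 1.53 and 1.12, with adjusted p = 0.121, 0.152 and 0.144. Without SCI day 3 replicate 3 they were 3.01, 3.59 and 2.54, with adjusted p = 0.106, 0.106 and 0.108.

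Mcm2 was at 10.2, 14.6 and 10.8 CPM in sham, at 77.4, 20.3 and 25.9 CPM at day 3, at 14.5, 35.0 and 24.5 CPM at day 7, and at 15.5, 18.4 and 16.4 CPM at day 14. All its day 3 and day 14 libraries lay above sham, whereas its first day 7 library was within the sham range, and its day 3 difference was just outside the limit (log2 fold change 1.79 ± 0.479, adjusted p = 0.0505). Mcm4 was at 23.2, 23.2 and 18.6 CPM in sham, at 91.8, 26.8 and 30.9 CPM at day 3, at 26.6, 46.4 and 30.2 CPM at day 7, and at 19.2, 21.3 and 18.7 CPM at day 14. Mcm7 was at 18.7, 19.7 and 16.8 CPM in sham, at 89.4, 23.8 and 36.5 CPM at day 3, at 23.0, 32.8 and 23.7 CPM at day 7, and at 16, 22.5 and 29.0 CPM at day 14. Both genes had no overlap with sham at day 3 or at day 7, and both overlapped it at day 14. Their day 3 log2 fold changes were 1.20 ± 0.414 for Mcm4 (adjusted p = 0.0816) and 1.44 ± 0.420 for Mcm7 (adjusted p = 0.0599). At day 7 the log2 fold changes of the 6 helicase genes ranged from 0.52 for Mcm7 to 2.27 for Mcm5. Their median was 2.01 at day 3, 1.26 at day 7 and 0.39 at day 14.

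**Figure D2:**
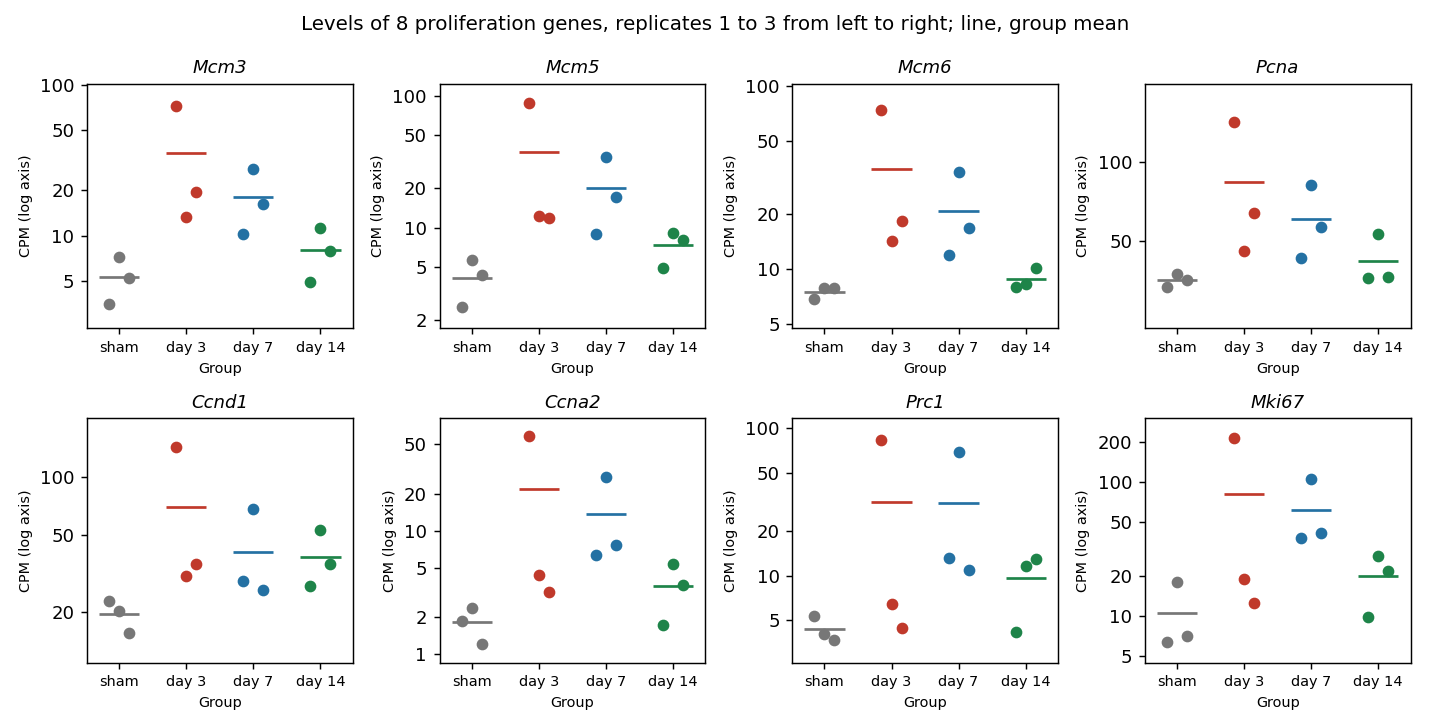
Points are the CPM of single libraries on a log axis, 3 per group in replicate order from left to right, and lines are group means. Mcm3, Mcm5, Mcm6 and Pcna lie above sham in all day 3 libraries, whereas Prc1 and Mki67 do so at day 7 and not at day 3.

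Pcna, the sliding clamp of the replicative polymerases, was at 33.2, 37.5 and 35.4 CPM in sham, at 142, 45.9 and 63.8 CPM at day 3, at 42.9, 82.0 and 56.3 CPM at day 7, and at 36.0, 52.9 and 36.4 CPM at day 14. Its day 3 and day 7 libraries all lay above sham, with log2 fold changes of 1.25 ± 0.385 (adjusted p = 0.0658) and 0.77 ± 0.381 (adjusted p = 0.552). Over the 8 machinery genes the median log2 fold change was 1.38 at day 3, 0.95 at day 7 and 0.24 at day 14. Its lowest day 3 value was 0.33, in the flap endonuclease gene Fen1, named after its values were seen. The helicase loaders Cdc6 and Cdt1, chosen in the same way, had all 3 day 3 libraries and all 3 day 7 libraries above sham.

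Cdc45, which activates the helicase, appeared in the table as 2 entries, and its value is uncertain. The entry with more counts (ENSRNOG00000050071, chromosome 11, minus strand, a span of 3518 bases, 104420 counts) was the one taken. It stood at 88.5, 125 and 90.9 CPM in sham, at 135, 165 and 158 CPM at day 3, at 130, 113 and 98.1 CPM at day 7, and at 102, 115 and 141 CPM at day 14. It was the only member whose highest library was not SCI day 3 replicate 1. Its other entry (ENSRNOG00000070046, plus strand, a span of 25147 bases, 2741 counts) stood at 1.70, 1.64 and 1.45 CPM in sham, at 11.9, 2.77 and 2.20 CPM at day 3, at 1.90, 5.45 and 2.84 CPM at day 7, and at 1.19, 1.90 and 1.77 CPM at day 14. That second entry has its highest levels in the same 2 libraries as the other members. In RefSeq Cdc45 is on the plus strand and both its neighbours, Ufd1 and Cldn5, are on the minus strand. No row of the gene table carried the symbol Cldn5. DESeq2 and limma called the entry taken higher at day 3, and their member counts include it. Whether the entry taken holds reads of another gene was not tested.

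Ribonucleotide reductase, thymidylate synthase (Tyms) and thymidine kinase supply the nucleotides for replication. Rrm1, the large subunit of ribonucleotide reductase, was at 34.8, 37.5 and 34.1 CPM in sham, at 130, 37.6 and 38.5 CPM at day 3, at 43.3, 85.6 and 41.9 CPM at day 7, and at 36.4, 41.4 and 36.7 CPM at day 14. Rrm2, its S-phase subunit, was at 4.67, 5.69 and 3.55 CPM in sham, at 84.4, 6.99 and 5.01 CPM at day 3, at 10.4, 74.1 and 9.42 CPM at day 7, and at 4.93, 11.5 and 9.96 CPM at day 14. Rrm2 was 74.1 CPM or more in 2 libraries and 11.5 CPM or less in the other 10. Its day 3 range overlapped sham (log2 fold change 2.79 ± 1.12, adjusted p = 0.112), and its day 7 range did not (2.76 ± 1.12, adjusted p = 0.458). Tk1, the salvage thymidine kinase, was chosen after its values were seen. It lay at 1.38 to 2.17 CPM in sham, at 63.4, 7.21 and 5.35 CPM at day 3 (log2 fold change 3.76 ± 1.09, adjusted p = 0.0584) and at 13.3, 39.3 and 5.00 CPM at day 7.

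The E-type cyclins, which drive entry into S phase with Cdk2, had no day on which their libraries stood clear of sham. Ccne1 was at 6.04, 6.06 and 5.05 CPM in sham, at 12, 5.89 and 1.88 CPM at day 3, at 5.53, 8.55 and 6.15 CPM at day 7, and at 5.24, 3.62 and 4.09 CPM at day 14. Ccne2 was at 16.7, 10.6 and 13.8 CPM in sham, at 25.3, 13.6 and 9.94 CPM at day 3, at 13.9, 16.2 and 9.18 CPM at day 7, and at 11, 10.3 and 11.5 CPM at day 14. Their day 3 log2 fold changes of 0.21 ± 0.503 and 0.25 ± 0.334 turned to -0.56 and -0.22 without SCI day 3 replicate 1. Ccnd1, the cyclin D1 gene that responds to growth factors in G1, was at 22.6, 20.2 and 15.6 CPM in sham, at 143, 30.5 and 35.2 CPM at day 3, at 28.9, 67.9 and 26.1 CPM at day 7, and at 27.3, 52.8 and 35.2 CPM at day 14. All 9 SCI libraries were above all sham libraries for Ccnd1, with log2 fold changes of 1.83 ± 0.596 at day 3 (adjusted p = 0.0728), 1.07 ± 0.585 at day 7 (adjusted p = 0.599) and 0.98 ± 0.584 at day 14 (adjusted p = 0.807).

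Cyclins A and B bind Cdk1 and carry the cell through G2 into mitosis. Ccna2, the cyclin of S phase and G2, was at 1.85, 2.38 and 1.22 CPM in sham, at 58.1, 4.41 and 3.21 CPM at day 3, at 6.30, 27.3 and 7.69 CPM at day 7, and at 1.72, 5.41 and 3.64 CPM at day 14. Ccnb1, the mitotic cyclin B1 gene, was at 2.5, 4.15 and 2.30 CPM in sham, at 39.8, 3.29 and 2.32 CPM at day 3, at 7.89, 25.5 and 5.96 CPM at day 7, and at 2.37, 4.07 and 4.90 CPM at day 14. Ccna2 had all day 3 libraries above sham (log2 fold change 3.59 ± 1.10, adjusted p = 0.0652). For Ccnb1 2 of the 3 day 3 libraries were inside the sham range, and its log2 fold change of 2.34 ± 0.995 (adjusted p = 0.125) turned to -0.09 without SCI day 3 replicate 1. At day 7 all libraries of both genes were above sham, with log2 fold changes of 2.92 ± 1.07 (adjusted p = 0.407) and 2.14 ± 0.988 (adjusted p = 0.514). Cdk1, the kinase they bind, was chosen after its values were seen. It was at 0.469 to 1.03 CPM in sham, at 36.1, 2.11 and 2.04 CPM at day 3, at 5.14, 23.4 and 4.78 CPM at day 7, and at 1.12, 3.56 and 4.81 CPM at day 14, so all 9 SCI libraries exceeded sham. Of the 6 genes of this role, which include Cdc25c and Foxm1, 2 had all day 3 libraries above sham, where 19% of all genes did. All day 7 libraries were above sham for 5 of the 6, where 12.8% of all genes did so. The median log2 fold change of the 6 was 3.47 at day 3, 3.04 at day 7 and 0.94 at day 14.

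The checkpoint kinase Bub1 was at 1.34, 3.98 and 2.39 CPM in sham, at 44.0, 5.33 and 3.98 CPM at day 3, at 7.86, 25.0 and 7.16 CPM at day 7, and at 2.07, 5.19 and 5.62 CPM at day 14. Aurka, which builds spindle poles, was at 5.18, 3.75 and 4.34 CPM in sham, at 24.7, 5.61 and 4.13 CPM at day 3, at 8.55, 20.9 and 6.68 CPM at day 7, and at 4.60, 8.97 and 7.84 CPM at day 14. Each had 1 or more day 3 libraries within the sham range and none at day 7. Of the 8 mitotic kinases and checkpoint genes, 2 had all day 3 libraries above sham, where 19% of all genes did. All day 7 libraries were above sham for 7 of the 8, where 12.8% of all genes did so. Their median log2 fold changes were 2.78 at day 3 and 2.39 at day 7.

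Spindle motors and kinetochore proteins attach and move the chromosomes. Prc1, which bundles the central spindle, was at 5.35, 4.01 and 3.69 CPM in sham, at 83.3, 6.49 and 4.45 CPM at day 3, at 13.3, 69.5 and 11 CPM at day 7, and at 4.16, 11.7 and 13 CPM at day 14. Kif20a, a kinesin of cytokinesis, was at 7.14, 9.70 and 7.39 CPM in sham, at 46.2, 7.95 and 8.75 CPM at day 3, at 12.4, 35.7 and 10.6 CPM at day 7, and at 7.63, 11.3 and 11.3 CPM at day 14. Of the 8 spindle genes, 2 had all libraries above sham at day 3, where 19% of all genes did. At day 7 all 8 did, where 12.8% of all genes did. The log2 fold change of Prc1 was 2.85 ± 1.12 at day 3 (adjusted p = 0.105) and 2.85 ± 1.12 at day 7 (adjusted p = 0.439), and the day 3 value was 0.33 without SCI day 3 replicate 1.

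Cdc20, the activator of the anaphase-promoting complex, was at 2.90, 3.34 and 3.52 CPM in sham, at 44.9, 3.46 and 7.42 CPM at day 3, at 6.70, 26 and 6.03 CPM at day 7, and at 3.92, 6.50 and 6.48 CPM at day 14. Ube2c, the ubiquitin-conjugating enzyme of that complex, was at 0.373, 0.984 and 0.469 CPM in sham, at 21.9, 1.52 and 0.462 CPM at day 3, at 3.64, 10.4 and 5.21 CPM at day 7, and at 0.455, 1.18 and 1.21 CPM at day 14. For both genes the second or the third library of day 3 was inside the sham range and all day 7 libraries were above it. Mki67, the gene of the Ki-67 antigen, was at 6.38, 17.8 and 7.11 CPM in sham, at 214, 18.9 and 12.5 CPM at day 3, at 38.4, 106 and 41.5 CPM at day 7, and at 9.84, 28.1 and 21.8 CPM at day 14. Top2a, which untangles sister chromatids, was at 4.02, 7.05 and 3.52 CPM in sham, at 134, 9.26 and 5.01 CPM at day 3, at 23.0, 87.5 and 21.2 CPM at day 7, and at 4.38, 14.2 and 11.9 CPM at day 14. In the third day 3 library both genes were within the sham range, and every day 7 library was above it. Their log2 fold changes were 2.97 ± 1.02 and 3.34 ± 1.15 at day 3 (adjusted p = 0.0808 and 0.0819) and 2.57 ± 1.0 and 3.17 ± 1.15 at day 7 (adjusted p = 0.436 and 0.397). Without SCI day 3 replicate 1 the day 3 values were 0.59 for Mki67 and 0.55 for Top2a.

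Levels between genes were compared per length, on the scale of FPKM (fragments scaled by gene length and library size) as deposited. Mean FPKM in sham was 22.6 for Pcna, 10.1 for Rrm1 and 8.29 for Ccnd1, against 1.0 for Mki67, 0.796 for Top2a and 0.530 for Cdk1. At day 3 the means were 55.7, 20.3 and 30.9 for the first 3 genes and 8.21, 8.51 and 9.81 for the last 3, with the first day 3 library far above the others in each. Cdk1 is again named after its values were seen.

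Over all members, 3 of 47 passed the test at day 3, higher in each case, where 5.5% of all 18714 genes were called higher (1030 genes) and 6.7% called in either direction. The unadjusted p was under 0.05 and the gene higher for 38 of 47, against 20.6% of all genes. DESeq2 called 24 members at day 3 and limma 16, all of Mcm2 to Mcm7 and Pcna in both, where they called 21.4% and 33.3% of all genes in either direction (5027 and 6232 genes). edgeR called 35 members without SCI day 3 replicate 2, where it called 19.2% of all genes higher and 37.1% in either direction. It called 1 (Mcm3) without SCI day 7 replicate 1, where 3.42% of all genes were called higher, and 0 without any other single library. At day 7, 0 of 47 passed (smallest adjusted p = 0.343) where 0.016% of all genes (3 genes) did, DESeq2 called 2 members and 1.97% of all genes higher, and 26 of 47 had an unadjusted edgeR p under 0.05 in the higher direction, against 7.76% of all genes. At day 14, 0 of 47 passed in edgeR, DESeq2 or limma, where 0.016% of all genes did in edgeR, and 0 of 47 had an unadjusted p under 0.05, against 6.43%. The median log2 fold change of the members against sham was 2.52, 1.99 and 0.66 at the 3 days, and that of all genes tested was 0.03, -0.02 and 0.01. All these comparisons share the sham libraries. In the test of the 4 groups together 0 of 47 passed (adjusted p from 0.151 to 0.786) and 23 had an unadjusted p under 0.05, where 0.0427% and 19.5% of all genes did. DESeq2 called 13 members where it called 10.9% of all genes, and limma 5 of 47 where it called 16.7%.

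Among the members, replication and mitosis genes differed in how their groups overlapped. All 3 day 3 libraries lay above all sham libraries for 20 of 47 genes, where 19% of all genes did so, and these were 13 of 20 replication genes and 6 of 26 mitosis genes with Ccnd1. At day 7 the count was 39 of 47 where 12.8% of all genes did so, made up of 14 of 20 replication genes, 24 of 26 mitosis genes and Ccnd1. At day 14 it was 8 of 47 where 9.37% did so, with 3 replication genes, 4 mitosis genes and Ccnd1. The day 3 difference was smaller in the other genes of the cycle given further on. There it held for 14 of 36 replication and 16 of 49 mitosis genes, against the same 19% of all genes. By median day 3 log2 fold change the mitosis members were higher, at 2.91 against 1.48 for the replication members. Leaving out both SCI day 3 replicate 1 and SCI day 7 replicate 2 left the member counts at 20, 39 and 8. The share of all genes became 22.2% at day 3 and 16.2% at day 7. Leaving out libraries can keep or raise such a count but cannot lower it, so these counts do not test the dependence on those 2 libraries. The day 3 count of mitosis genes became 15 without sham replicate 2 and 14 without SCI day 3 replicate 3. The day 14 count of members became 33 without SCI day 14 replicate 1 and 24 without sham replicate 2. That of mitosis genes became 23 and 13, and that of replication genes 9 and 10. Without sham replicate 1 the day 14 count of mitosis genes was 8.

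**Figure D3:**
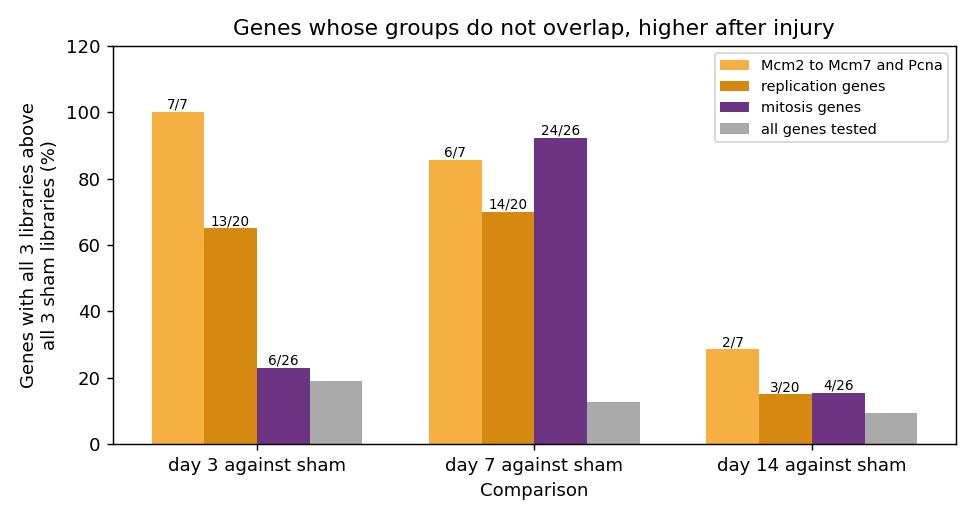
Bars give the percentage of genes whose 3 libraries of a day all lie above all 3 sham libraries, with the counts on the bars, for 3 gene sets and for all genes tested in grey. Mcm2 to Mcm7 and Pcna reach 7 of 7 at day 3, whereas the mitosis genes go from 6 of 26 at day 3 to 24 of 26 at day 7.

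Library by library, all 7 of Mcm2 to Mcm7 and Pcna exceeded the highest sham library in each day 3 library. The mitosis genes did so for 26 of 26 in replicate 1, for 14 in replicate 2 and for 7 in replicate 3, where 40.4%, 28.8% and 41.4% of all genes did. In SCI day 3 replicate 3, 3 replication and 3 mitosis genes were below the lowest sham library, as were 7284 of all 18714 genes. At day 7 the mitosis genes exceeded the highest sham library for 25, 26 and 24 of 26, and the 7 replication genes for 6, 7 and 7. The share of all genes was 26.6%, 31.3% and 31.1%. At day 14 the 26 mitosis genes did so for 4, 24 and 25, and the 20 replication genes for 3, 13 and 11.

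As a per-library mean of the difference from sham in log2(CPM + 1), the 20 replication genes were at 2.42, 0.57 and 0.53 at day 3, and the 26 mitosis genes at 3.57, 0.48 and 0.23. The Mcm and Pcna mean was 2.82, 0.75 and 1.09. At day 7 the replication means were 0.54, 1.51 and 0.67 and the mitosis means 1.27, 2.86 and 1.16, so mitosis genes had the larger difference in all 3 libraries. At day 14 the replication means were -0.03, 0.38 and 0.34 and the mitosis means 0.04, 0.95 and 0.87. The replication mean minus the mitosis mean was -1.15, 0.09 and 0.30 at day 3, -0.73, -1.34 and -0.50 at day 7, and -0.06, -0.56 and -0.53 at day 14, against 0.04, -0.19 and 0.15 in sham. The mean over libraries in each group (± SD, n = 3) was 0 ± 0.17 in sham, -0.26 ± 0.78 at day 3, -0.86 ± 0.44 at day 7 and finally -0.39 ± 0.28 at day 14. For Mcm2 to Mcm7 and Pcna alone, the mean minus the mitosis mean was -0.75, 0.27 and 0.86 at day 3 (0.13 ± 0.82), -0.75, -1.19 and -0.18 at day 7 (-0.71 ± 0.51), and 0.01, -0.43 and -0.48 at day 14 (-0.30 ± 0.27), so its day 3 mean had the opposite sign. The size of the 20-gene difference moved with the pseudocount, to -1.25 and -0.43 at day 7 and -0.63 and -0.17 at day 14 with 0.1 and 5 CPM. No test was made of these differences, since the genes were chosen with results known.

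**Figure D4:**
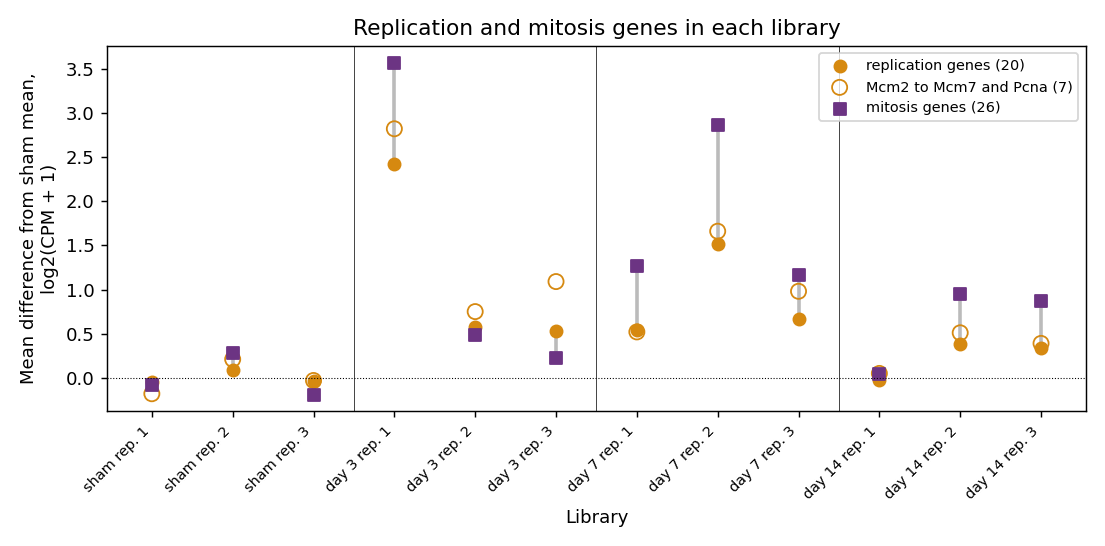
Filled circles give the mean difference from sham of 20 replication genes in log2(CPM + 1), open circles that of Mcm2 to Mcm7 and Pcna, and squares that of 26 mitosis genes, for each of 12 libraries. Squares lie above filled circles in SCI day 3 replicate 1 and in all day 7 libraries, and at or below them in SCI day 3 replicates 2 and 3.

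Between SCI days, 0 of 47 members passed the test in any of the 3 comparisons, where 0% of all genes did. From day 3 to day 7 the median log2 fold change of members was -0.40, and 1 had an unadjusted p under 0.05 in the lower direction, where 9.48% of all genes did. Also 1 member had all day 7 libraries below all day 3 libraries, where 7.69% of all genes did. It was Cdc45 in the entry taken, named after its values were seen, and its other entry overlapped between these days. From day 7 to day 14 the median was -1.25, 20 of 47 had all day 14 libraries below all day 7 libraries, where 4.83% of all genes did, and 1 had an unadjusted p under 0.05 in the lower direction, where 1.42% did. From day 3 to day 14 all 47 log2 fold changes were negative with a median of -1.87, 15 had an unadjusted p under 0.05, where 11% of all genes did in that direction, and 9 had no overlap, where 9.43% did. Those of Mcm2 to Mcm6 were among the 9, with log2 fold changes from -2.35 for Mcm5 to -1.30 for Mcm2 and adjusted p from 0.195 to 0.227. DESeq2 called 7 members lower from day 3 to day 14, where it called 3.18% of all genes lower, and 0 between the other pairs of days, and limma called 0 in all 3.

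Other genes of the cycle, listed apart from the members, gave the surroundings. The members' 3 calls of 47 stand beside these counts at day 3, where 5.5% of all genes were called higher. Of 36 other replication genes 1 passed at day 3, Rpa2, a subunit of the single-strand binding protein (log2 fold change 1.08 ± 0.279, adjusted p = 0.0475). All libraries of day 3, 7 and 14 were above sham for 14, 16 and 2 of the 36, where 19%, 12.8% and 9.37% of all genes did so. Of 49 other mitosis genes 0 passed at any day in edgeR. An unadjusted p under 0.05 in the higher direction was found for 29, 26 and 0 at day 3, 7 and 14, against 20.6%, 7.76% and 6.43% of all genes. All libraries were above sham for 16, 41 and 5 of the 49, against the same 19%, 12.8% and 9.37% of all genes. At day 3 this held for 13 of 20 replication members and 6 of 26 mitosis members. The 2 other mitosis genes with the highest levels were Anln, an actin-binding protein of cytokinesis, and Cdc25b, a phosphatase of Cdk1. Their day 3 log2 fold changes were -0.73 ± 0.601 (adjusted p = 0.401) and -0.36 ± 0.339 (adjusted p = 0.468). They were the only 2 of the 49 with a negative value at day 3, against 47 with a positive value, and the median of the 49 was 2.23. Of 10 D-type and C-type cyclins and early kinases 2 rose at day 3, the cyclin gene Ccnd2 (0.82 ± 0.213, adjusted p = 0.0487) and its kinase Cdk4 (0.91 ± 0.219, adjusted p = 0.0419). Of 16 inhibitors, E2F and pocket protein genes 5 rose at day 3. They were the antiproliferative genes Btg1 (2.07 ± 0.372, adjusted p = 0.0324) and Btg2 (1.88 ± 0.463, adjusted p = 0.0436), the Cdk4 inhibitor gene Cdkn2b (2.61 ± 0.669, adjusted p = 0.0471), and E2f4 (0.94 ± 0.200, adjusted p = 0.0369) and E2f5 (1.56 ± 0.293, adjusted p = 0.0332), which act with pocket proteins in repression. No gene of these 4 lists passed in edgeR at day 7 or day 14, where DESeq2 called 4 other mitosis genes and 1 inhibitor at day 7 and none at day 14, and limma none at either. At day 3 DESeq2 and limma called all 8 of these genes. Of the other replication genes they called 15 and 15, of the other mitosis genes 18 and 9, of the cyclins and early kinases 5 and 7 and of the inhibitor list 10 and 10, all higher, where they called 12.6% and 17.7% of all genes higher. In edgeR with each of 12 libraries left out in turn, E2f5 and Btg1 were each called in 6 fits, E2f4 in 5, Cdk4, Cdkn2b and Btg2 in 2, and Rpa2 and Ccnd2 in 1.

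In Btg1 the 3 day 3 libraries were at 104, 65.4 and 173 CPM against 22.0, 38.6 and 21.2 CPM in sham, and in E2f5 at 20.8, 10.2 and 19.3 CPM against 4.68, 6.02 and 6.33 CPM. For both genes the third day 3 library was close to or above the first, whereas all 26 mitosis genes were highest in the first.

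Some marker lists of cells that divide or enter after injury moved with some of these libraries, and others did not. Microglia markers (8 of 8 in the table) summed to 202 to 323 CPM in sham, 667, 205 and 204 CPM at day 3, 697, 1042 and 419 CPM at day 7, and 278, 832 and 746 CPM at day 14. Their first day 3 and second day 7 libraries were the highest of those days, as for the members. Pericyte and smooth muscle markers (7 of 7) had their highest sums in the same 2 libraries, with 221 to 306 CPM in sham, 837, 422 and 494 CPM at day 3, 570, 637 and 484 CPM at day 7, and 343, 373 and 368 CPM at day 14. So did the sum of T, B and NK cell markers (12 of 13), at low levels, with 1.48 to 13.3 CPM in sham, 26.6, 13.1 and 6.86 CPM at day 3, 3.39, 17.8 and 5.09 CPM at day 7, and 2.66, 9.26 and 1.57 CPM at day 14. In those 2 libraries most of this sum was the single gene Cd8a, at 21.8 and 14.7 CPM. Cd3e stood there at 0.39 and 0.529 CPM, and Cd79a was highest in sham replicate 2 at 5.29 CPM. Monocyte and macrophage markers (9 of 9) summed to 169 to 342 CPM in sham, 976, 309 and 680 CPM at day 3, 231, 692 and 554 CPM at day 7, and 253, 767 and 546 CPM at day 14. Endothelial markers (7 of 8) summed to 230 to 343 CPM in sham, 1408, 503 and 947 CPM at day 3, 550, 448 and 625 CPM at day 7, and 393, 475 and 467 CPM at day 14. Oligodendrocyte progenitor markers (8 of 8) summed to 637 to 964 CPM in sham, 691 to 1040 CPM at day 3, 687 to 984 CPM at day 7 and 713 to 877 CPM at day 14, so their ranges overlapped. Astrocyte markers (6 of 6) summed to 2655 to 4909 CPM in sham and 5464, 4498 and 1830 CPM at day 3. They stood at 9986, 10759 and 8722 CPM at day 7, and at 2908, 7132 and 4485 CPM at day 14. Most of the day 3 and day 7 sums was the single gene Gfap, at 4720, 3143 and 1305 CPM and at 7564, 8365 and 7028 CPM. The other 5 astrocyte markers had negative log2 fold changes at day 3 against sham. The median of the 6 was -1.33, and edgeR called 3 of them lower, where it called 1.2% of all genes lower. Neutrophil markers (6 of 6) were highest in sham replicate 2 at 56.9 CPM. In SCI day 3 replicate 1 and SCI day 7 replicate 2 they stood at 52 and 40.8 CPM. Marrow progenitor markers (8 of 10) were highest in SCI day 3 replicate 2 at 85.2 CPM and stood at 15.3 CPM in SCI day 3 replicate 1, and in SCI day 7 replicate 2 at 4.88 CPM, the libraries with the highest member levels. In no list was a marker present in the table at 0 in every library. The part of these cell types in the member levels was not tested.

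**Figure D5:**
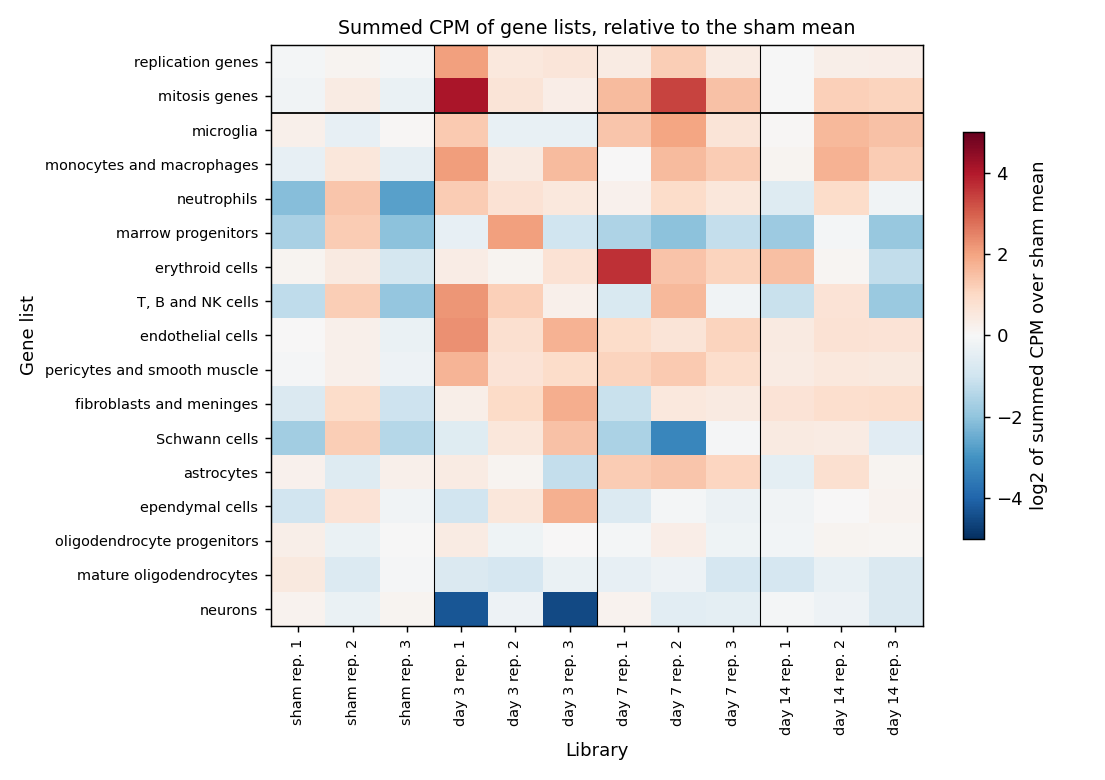
Colour gives the log2 ratio of the summed CPM of each list to its sham mean in each of 12 libraries, with the replication and mitosis genes in the top 2 rows and marker lists of 15 cell types below. Mitosis genes summed to 1223 CPM in SCI day 3 replicate 1 and in SCI day 7 replicate 2 to 754 CPM, and neuron markers are lowest in SCI day 3 replicates 1 and 3.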

How the data were processed

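RNA of 12 rat lumbar cord samples was prepared with a SMARTer mRNA-Seq kit, per the labels' protocols. The counts are raw read counts per gene that the authors deposited without normalization, per the file headers. To compare levels between genes, FPKM values were used, which the authors had scaled by gene length and library size, per the file headers. No source used here gives the aligner, counter, strand setting or handling of multi-mapped reads, so overlapping or near-identical genes are uncertain. The submitters' processing notes name GRCm38 and mm10, both of them mouse builds, whereas the gene identifiers are rat ones.

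Genes were taken by symbol, using the row with more counts where a symbol repeated. The members and lists were chosen with earlier results of these data known, and the other lists were partly taken from that earlier work, so no count here is independent support. Counts were filtered with filterByExpr, scaled with TMM and fitted in edgeR 4.0.16 (R 4.3.3), all 12 libraries together with 1 mean per group and 8 residual degrees of freedom. The quasi-likelihood test was adjusted by Benjamini-Hochberg over all 18714 genes, limit 0.05. Each SE is the absolute log2 fold change over the square root of F and so restates the test. The common biological coefficient of variation was 0.432. Scores used log2(CPM + 1). The steps were tested on simulated data. Alternatives used DESeq2 1.42.0, limma 3.58.1, other scalings, filters, pseudocounts, a replicate block, and each library left out.

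Values per library are given for Mcm2 to Mcm7 and Pcna, for the 2 members of each role with the highest mean CPM, and for members called in any comparison. Of the other lists the called genes are named, up to 4 by smallest p, or the 2 with the highest mean CPM. The fifth called gene of the inhibitor list, Cdkn2b, is named outside this rule.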

Additional observations from a re-analysis of the deposited data

Results flagged for a closer look

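The helicase gene Mcm4 lay on opposite sides of its sham mean at different days. All 3 libraries of SCI day 3 lay above its sham mean and all 3 of SCI day 14 below it, and the mean differences from sham in log2(CPM + 1) were 1.07 apart. The same held for SCI day 7 against SCI day 14, with means 0.73 apart. These opposite sides were not themselves tested. All day 14 libraries of Mcm4, at 19.2, 21.3 and 18.7 CPM, lay within the sham range of 18.6 to 23.2 CPM. Its day 14 log2 fold change against sham was -0.14, so no fall below sham was shown. In edgeR's quasi-likelihood test Mcm4 had a log2 fold change of -1.34 ± 0.415 from day 3 to day 14 (adjusted p = 0.202).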

How the results depend on the processing

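Of the log2 fold changes of the named genes under the alternatives, 1363 kept direction and side of the threshold, 46 lost a call, 31 gained one and 9 reversed. Only Mcm3, Mcm5 and Mcm6 at day 3 could lose a call, and most values that kept their side were uncalled in the main setting too. With 1 library left out, Mcm3 was called in 2 of 12 fits and Mcm5 and Mcm6 each in 1. In the other 8 planned settings they were called in 5, 4 and 4. Members called at day 3 against sham (3 in the main setting) were 24 with DESeq2, 16 with limma, 1 with DESeq2 size factors, 6 with a filter of 1 CPM, and 0 with no filter, with only the groups compared, and without both SCI day 3 replicate 1 and SCI day 7 replicate 2. Over all genes (1254) these settings gave 5027 with DESeq2, 6232 with limma, 1066 with DESeq2 size factors, 1658 with the 1 CPM filter, 733 with no filter, 1 with only the groups compared and 1 without both libraries. At day 7 (members 0, all genes 3) DESeq2 called 2 members and 502 genes, limma 276 genes, only the groups compared 89, and the fit without both libraries 1. At day 14 (all genes 3) DESeq2 called 207 genes, limma 9, only the groups compared 0, and the fit without both libraries 1. Between days (0 genes in each), DESeq2 called 231 genes and limma 1 from day 3 to day 7, DESeq2 46 from day 7 to day 14, and DESeq2 7 members and 1059 genes from day 3 to day 14. For the 4 groups together DESeq2 called 13 members and 2557 genes, and limma 5 members and 3116 genes.

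Leaving out 1 library at a time gave 0 to 35 members and 1 to 7087 genes at day 3 against sham, with both maxima without SCI day 3 replicate 2. It gave 0 to 0 members and 1 to 7 genes at day 7, and 0 to 0 members and 1 to 3 genes at day 14. From day 3 to day 7 it gave 0 to 1 members and 0 to 3605 genes, from day 3 to day 14 0 to 10 members and 0 to 4342 genes, and for the 4 groups together 0 to 12 members and 0 to 4330 genes. From day 7 to day 14 it gave 0 members and 0 genes. The counts of members above all sham libraries ranged from 20 to 31 at day 3, 39 to 42 at day 7 and 8 to 33 at day 14. Those of replication genes ranged from 13 to 16, 14 to 17 and 3 to 10, and those of mitosis genes from 6 to 15, 24 to 25 and 4 to 23. Leaving out a library cannot lower these counts above sham, so the lower ends equal the main values by construction. The mean of replication minus mitosis genes ranged from -0.53 to 0.19 at day 3, -1.04 to -0.62 at day 7 and -0.55 to -0.30 at day 14. Pseudocounts of 0.1 and 5 CPM gave -0.45 and -0.06 at day 3 (-0.26 with 1 CPM), -1.25 and -0.43 at day 7 (-0.86) and -0.63 and -0.17 at day 14 (-0.39), and the second day 3 library went from 0.09 to -0.04 with 0.1 CPM. With Mcm2 to Mcm7 and Pcna as the replication genes the means were 0.13, -0.71 and -0.30, with medians over members -0.23, -1.06 and -0.42, and with scaling by library size -0.25, -0.85 and -0.38. The libraries left out of the counts of members above sham, and both left out together, were chosen after seeing the data, as was the other Cdc45 entry. That entry changed no count of members called in edgeR, and it was not used for the counts above sham. Its day 7 libraries all lay above sham, whereas those of the entry taken overlapped sham.

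Reversed log2 fold changes at day 3 were those of Ccne1 (-0.08 with limma, -0.56 without SCI day 3 replicate 1, -0.54 without both libraries), Ccne2 (-0.22 and -0.20 in the last 2 settings) and Ccnb1 (-0.09 and -0.07). At day 7 Ccne2 reversed to 0.10 without sham replicate 1 and to 0.13 without SCI day 7 replicate 3. With 1 library left out, the day 3 values ranged from -0.56 to 0.65 for Ccne1, -0.22 to 0.51 for Ccne2 and -0.09 to 2.85 for Ccnb1, and the day 7 value of Ccne2 from -0.25 to 0.13. The cause of these changes was not tested.

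With the replicate number as a block, 0 members and 8 genes were called at day 3 against sham, 1 gene at day 7, 1 at day 14 and 1 from day 3 to day 7. Whether the numbers pair the libraries is not known. Over 18 same-numbered pairs the correlation of deviations ran from -0.343 to 0.247, and 6 pairs were over 0.1. Of 12 libraries 3 correlated best with a library of their own number. With 3 libraries per group these correlations cannot exclude a pairing. Counts were low for some members: Foxm1 had 0, 13 and 12 counts in sham and 1 and 0 in SCI day 3 replicates 2 and 3, and Melk 32, 0 and 0 in sham, so their folds are imprecise.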
